A study of Mus musculus with 13 samples.

Results

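Matrix metalloproteases (Mmp), Adam and Adamts proteases and the tissue inhibitors of metalloproteases (Timp) were described in 2 mouse models of basal cell carcinoma (BCC). Members were taken by symbol, as every Mmp, Adam, Adamts or Adamts-like gene and every Timp with a value in all 13 tumors and at least 10 counts in 4 or more tumors. Of 85 symbols of these families in the table, 54 passed and were tested among 14390 genes in all. They comprised 15 Mmp, 3 Timp, 14 Adam, 18 Adamts and 4 Adamts-like genes. Another 12 had values in all tumors but too few counts, 13 lacked a value in every Tp-BCC tumor, 1 lacked a value in every GEM-BCC tumor, and 5 had no value at all.

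The 9 GEM-BCC tumors (GEM1 to GEM9) were intradermal tumors of female mice carrying Ptch1+/-, p53fl/fl and the tamoxifen-inducible K14-CreER2 (as the sample labels spell it, elsewhere K14-CreERT2), given 3 intraperitoneal injections of 300 µg tamoxifen and 1 X-ray dose of 4 Gy. The Cre is driven by the keratin 14 promoter, which is active in basal keratinocytes. Only 7 mice are represented because GEM2 with GEM3, and GEM7 with GEM8, each came from a single animal. The 4 Tp-BCC tumors (TP1 to TP4) grew subcutaneously in 4 female, immunocompetent Ptch1+/-p53fl/fl mice. Each of these mice was inoculated with the same number of tumor cells, which had been passaged in mice. All 4 Tp-BCC tumors descended from a single GEM-BCC tumor, so they sample 1 tumor of origin. Both models share the Ptch1+/- and p53fl/fl alleles, and the hosts of Tp-BCC lack the Cre. These hosts also received no tamoxifen and no X-rays, and the GEM-BCC mice received no inoculated cells. Treatment of the mouse therefore cannot be told apart from model. Ages were not given in the sources used here.

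Libraries of GEM-BCC held 28075317 to 32629102 counts and those of Tp-BCC 15388027 to 17494912. All GEM-BCC libraries were labelled batch 1 and all Tp-BCC libraries batch 2, so model and batch cannot be told apart. Levels also followed the GC content of transcripts differently from library to library. The Spearman correlation of a gene's level, relative to its mean, with GC content was 0.594 in TP2 and 0.591 in TP4 but -0.389 in TP1 and -0.473 in TP3, with 0.365 in GEM1 and -0.312 to -0.150 in GEM2 to GEM9. Values corrected for this trend are therefore given for the members with an adjusted p under 0.05 and for some other genes. Sums of levels and their ratios below are not corrected. Levels are given as CPM, a count relative to the size of its library after TMM scaling, and log2 fold changes are of Tp-BCC over GEM-BCC with their SE. Among 8 keratinocyte markers of the tumor, Krt5 and Gli1 were at 3726 and 674 CPM or more in all Tp-BCC tumors. In GEM-BCC they were at 4680 and 376 CPM or more. Others were lower in some Tp-BCC tumors: Trp63 and Ptch1 were at 116 and 61.0 CPM in TP4, against 312 and 158 CPM or more in GEM-BCC.

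Mmps are zinc endopeptidases made as inactive proenzymes. They cut collagens, basement membrane and other matrix proteins, and the membrane-type Mmps do so at the cell surface. Adams are anchored in the membrane and release growth factors, cytokines and adhesion molecules from it. Adamts proteases are secreted and process procollagens, proteoglycans and von Willebrand factor, whereas the Adamts-like proteins share their ancillary domains but have no protease domain. Timps block the active site of Mmps, and Timp3, which stays bound to the matrix, also inhibits several Adam and Adamts proteases. In skin, these genes are known from wound repair, hair follicle cycling and the stroma around carcinomas.

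Promoter sequences are shown for the 3 secreted Mmps whose levels moved together among GEM-BCC tumors and, for contrast, for the best-expressed protease and for the inhibitor that fell in Tp-BCC. Each line gives the 150 bases before the start site in RefSeq (GRCm38.p6, all on the plus strand), 5′ to 3′. Capitals mark TGAGTCA or its reverse complement TGACTCA, the AP-1 motif, in the first 3 lines and GGGCGG or its reverse complement CCGCCC, the GC box, in the last 2. For Mmp12 the start site with the motif is shown, and the other annotated start has no match.
Mmp3 (chr9:7445672-7445821): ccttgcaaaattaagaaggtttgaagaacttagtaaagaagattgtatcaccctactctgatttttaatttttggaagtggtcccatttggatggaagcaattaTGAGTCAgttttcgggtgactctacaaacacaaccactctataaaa
Mmp12 (chr9:7347224-7347373): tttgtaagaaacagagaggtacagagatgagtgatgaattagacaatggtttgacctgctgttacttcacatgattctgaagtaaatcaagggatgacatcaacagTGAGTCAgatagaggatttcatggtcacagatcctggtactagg
Mmp13 (chr9:7272364-7272513): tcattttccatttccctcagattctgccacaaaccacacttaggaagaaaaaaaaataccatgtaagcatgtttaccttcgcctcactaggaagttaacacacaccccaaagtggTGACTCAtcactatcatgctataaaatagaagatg
Mmp14 (chr14:54431448-54431597): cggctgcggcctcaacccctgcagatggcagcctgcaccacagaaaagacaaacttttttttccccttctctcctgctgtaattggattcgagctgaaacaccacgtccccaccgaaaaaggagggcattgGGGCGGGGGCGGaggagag
Timp3 (chr10:86300262-86300411): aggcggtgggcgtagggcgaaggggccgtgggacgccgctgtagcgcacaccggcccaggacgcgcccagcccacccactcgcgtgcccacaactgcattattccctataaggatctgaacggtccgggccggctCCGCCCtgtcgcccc

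The AP-1 motif began 46, 44 and 35 bases before the start of Mmp3, Mmp12 and Mmp13. Over windows of 250 bases before to 50 bases after the start, on both strands, it was present in 5.2% of 32851 promoters. Of the 38 promoters of 34 tested members, 4 (10.5%) held it, those of Adam19, Mmp3, Mmp12 and Mmp13. It was found for 7 of the 10 Mmp genes that lie together on chromosome 9 (Mmp1a, Mmp1b, Mmp3, Mmp7, Mmp10, Mmp12 and Mmp13, but not Mmp8, Mmp20 or Mmp27). Of these 7, Mmp1a, Mmp1b, Mmp7 and Mmp10 had at most 3 counts in any GEM-BCC tumor. The GC box was present in 35.7% of all promoters and in none of the 10 genes on chromosome 9, but in 26 of the 38 promoters of tested members. The GC boxes of Mmp14 began 19 and 13 bases before its start, and that of Timp3 15 bases before. TATAAA was present in 13.6% of all promoters, in 5 of the 38 and in 9 of the 10 cluster genes. The Gli motif GACCACCCA, held by 0.253% of all promoters, matched no promoter of a member.

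Between models, most of the family did not pass the test. With edgeR's quasi-likelihood test and Benjamini-Hochberg adjustment over all tested genes, 6 members rose in Tp-BCC at an adjusted p under 0.05 (Adamts3, Mmp28, Mmp24, Adamts8, Adamts7 and Adam11) and 7 fell (Adam33, Adamtsl2, Adamts18, Timp3, Adamts13, Adamts5 and Mmp23). These are 11.1% and 13% of the members, against 11.1% and 8.35% of all tested genes. With the counts of each mouse summed, 5 rose and 5 fell, but the shares over all genes were not counted in that fit. The median log2 fold change of the members was 0.09, against -0.03 over all genes, and 28 of the 54 were positive. With a further limit of 2 on the absolute log2 fold change, no member was higher and 4 were lower (Adam33, Adamtsl2, Adamts18 and Timp3), where the shares over all genes were 2.36% and 3.21%. The same 4 genes did not overlap between models, with all Tp-BCC tumors below all GEM-BCC tumors, as for 4.45% of all genes. In the other direction Adam11, Mmp28, Adam23 and Adamts8 did not overlap, as for 5.5% of all genes.

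After GC correction, 6 members were higher and 9 lower at an adjusted p under 0.05, against 15.1% and 13.3% of all genes. Of the 13 genes above, 12 passed in both fits in the same direction. Mmp24 no longer passed, while Adam23 (higher), Adam17 and Adam1a (lower) newly did. The median of the members moved to -0.18 on the log2 scale, against -0.02 for all genes, so the family as a whole had no direction that held under both scalings.

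**Figure D1:**
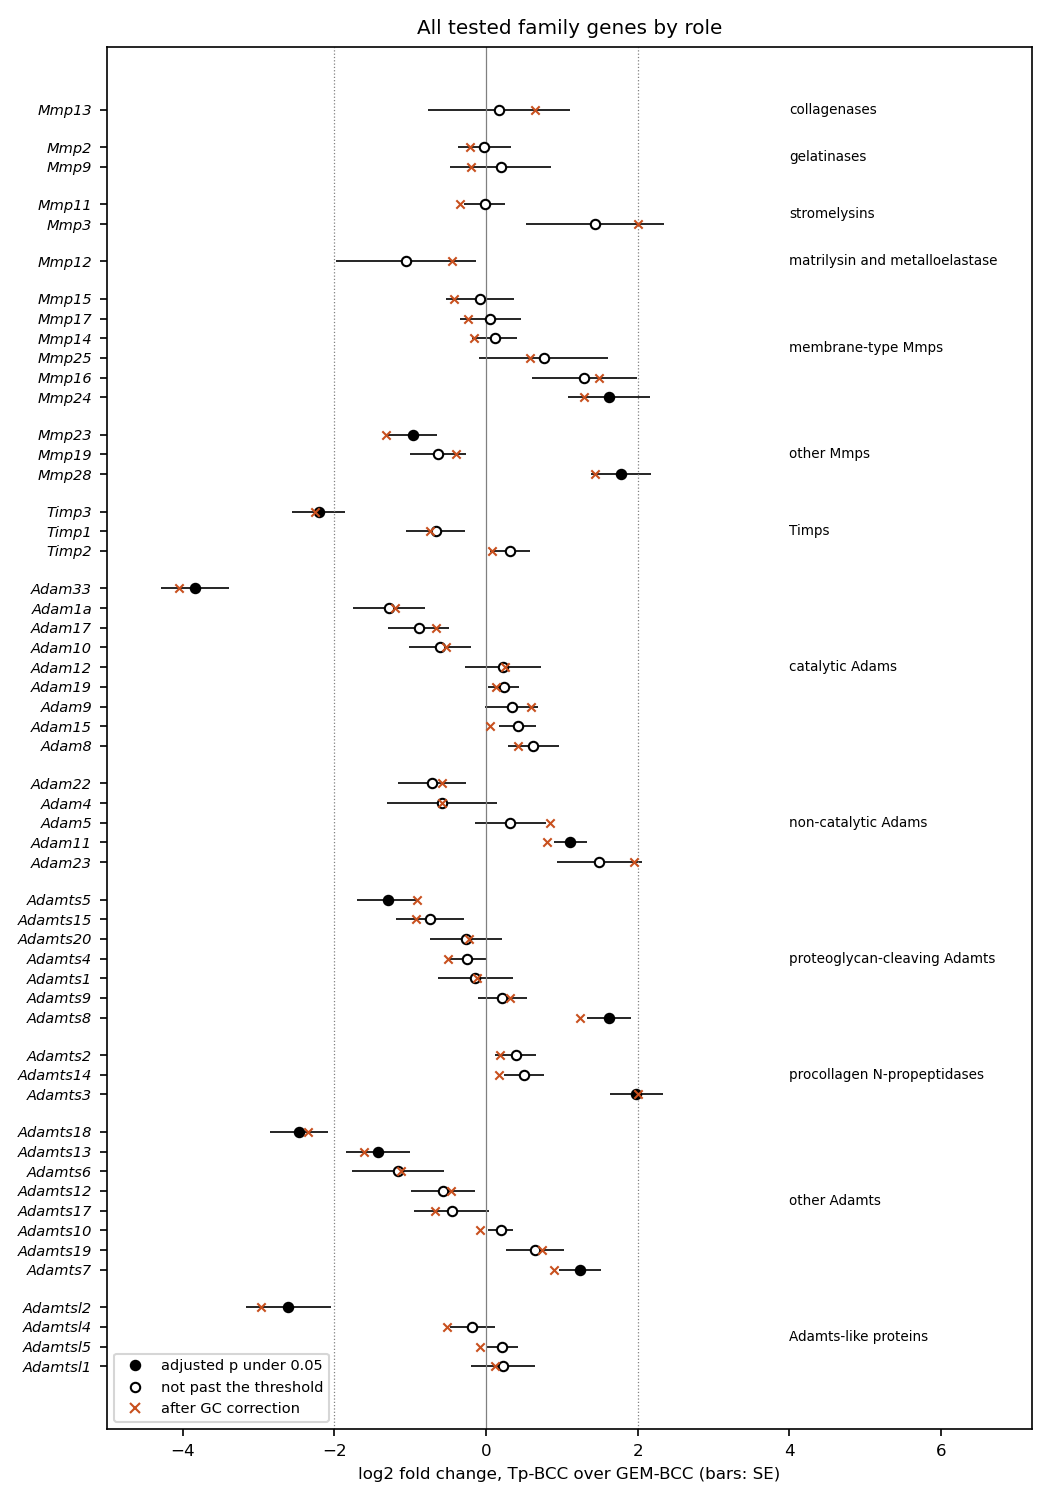
Log2 fold change of Tp-BCC over GEM-BCC for the 54 tested genes, grouped by role, with SE bars. Filled points have an adjusted p under 0.05, orange crosses are values after GC correction and dotted lines mark a log2 fold change of 2 in either direction; the filled points to the left of -2 are Timp3, Adam33, Adamts18 and Adamtsl2, and none lies to the right of 2.

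Per kilobase of transcript, Mmp14 was the highest member in all 13 tumors. Its level was 380 ± 128 CPM per kilobase in GEM-BCC (SD, n = 9) and 411 ± 168 in Tp-BCC (SD, n = 4). Timp2 was next, at 253 ± 75.8 and 314 ± 113 CPM per kilobase, and its range overlapped that of Mmp14 in both models. In GEM-BCC, Timp3 followed at 191 ± 72.9, then Mmp2 at 109 ± 47.9, Mmp11 at 63.9 ± 20.7 and Adamts10 at 51.6 ± 4.79 CPM per kilobase, each with a range that overlapped that of the next. In Tp-BCC the order of these genes was the same except that Timp3, at 41.3 ± 11.9, had moved from place 3 to place 7, after Adam15. Transcript lengths are medians over annotated protein-coding transcripts, so this order is approximate.

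Mmp14, which activates pro-Mmp2 at the cell surface and cuts fibrillar collagen, was at 563, 983 and 1693 CPM (lowest, median and highest) in GEM-BCC. In TP1 to TP4 it was at 697, 1364, 690 and 1519 CPM. The 4 Tp-BCC values lay inside the GEM-BCC range, and the log2 fold change was 0.11 ± 0.29 (SE, adjusted p = 0.811) and -0.16 after GC correction. Its share of all Mmp CPM was 57.9% to 73.7% over GEM-BCC tumors, and in Tp-BCC 69.1% to 70.4%.

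Of the gelatinases, Mmp2, made mainly by stromal cells, was at 99.6, 174 and 372 CPM in GEM-BCC and at 132, 270, 115 and 285 CPM in TP1 to TP4. The models overlapped fully (log2 fold change -0.03 ± 0.35, adjusted p = 0.968). Mmp9, typical of neutrophils, macrophages and migrating keratinocytes, was at 0.791, 2.03 and 15.2 CPM in GEM-BCC, with its maximum in GEM3, and at 3.89, 5.01, 2.93 and 9.35 CPM in Tp-BCC. Its difference did not pass either (0.19 ± 0.67, adjusted p = 0.865). Mmp11, a stromelysin known from fibroblasts around carcinomas, was at 78.8 ± 25.5 CPM in GEM-BCC and 78.1 ± 26.3 in Tp-BCC.

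Of the 6 membrane-type Mmps, 1 rose and none fell. Mmp24 was at 0.0598, 0.297 and 0.953 CPM in GEM-BCC and at 0.942, 1.35, 0.658 and 1.78 CPM in Tp-BCC. The groups overlapped through GEM1 and GEM3, and these levels rest on 2 to 29 counts. It passed narrowly, with a log2 fold change of 1.62 ± 0.54 (adjusted p = 0.0475), and the call was lost after GC correction (adjusted p = 0.0637) and without any 1 of GEM2, GEM4 to GEM9, TP1, TP2 or TP4 (0.0534 to 0.17), or with counts summed per mouse (0.061). Mmp16 ranged from 0.15 CPM in GEM6 to 10.2 in GEM3 and was at 10.7, 8.04, 12.2 and 3.93 CPM in Tp-BCC, without passing (1.3 ± 0.69, adjusted p = 0.195). Mmp15 was at 364 CPM in GEM1 and at 50.5 to 132 CPM in the other 8 GEM-BCC tumors.

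Among the other Mmps, Mmp28 (epilysin), which keratinocytes express, rose. It was at 1.24, 2.36 and 6.08 CPM in GEM-BCC, highest in GEM1, and at 6.18, 11.5, 6.28 and 13.9 CPM in Tp-BCC. TP1 lay only just above GEM1. This was a log2 fold change of 1.78 ± 0.40 (adjusted p = 0.00638) and 1.44 ± 0.33 after GC correction (adjusted p = 0.00586). Mmp23, an Mmp held in the membrane by its amino-terminal part, fell from 12.5, 26.3 and 38.6 CPM in GEM-BCC to 9.07, 14.4, 9.16 and 19.6 CPM in Tp-BCC. TP2 and TP4 lay above GEM4, the lowest GEM-BCC tumor, and the models no longer overlapped after GC correction. Its log2 fold change was -0.97 ± 0.32 (adjusted p = 0.0448), lost without any 1 of GEM1, GEM2, GEM5, GEM6, GEM9, TP1, TP2 or TP3 (0.0508 to 0.113) or with counts summed per mouse (0.0577), and -1.32 ± 0.26 after GC correction (adjusted p = 0.00249).

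**Figure D2:**
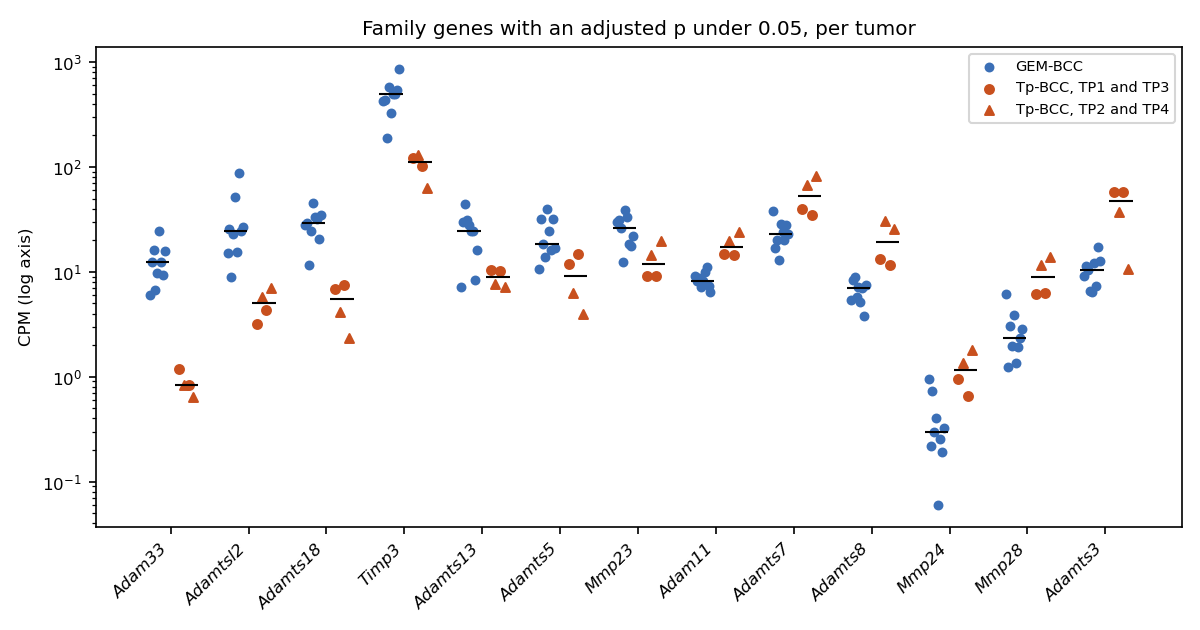
CPM per tumor, on a log axis, of the 13 genes with an adjusted p under 0.05, ordered by log2 fold change. Blue points are the 9 GEM-BCC tumors, orange circles TP1 and TP3, orange triangles TP2 and TP4, and lines the median of each model; Adam33 lies at 0.643 to 1.18 CPM in Tp-BCC and from 6.05 CPM up in GEM-BCC.

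The Timps did not move as a group: 1 of 3 tested fell and none rose. Timp3 was at 189, 491 and 863 CPM in GEM-BCC, lowest in GEM3 and highest in GEM9. In TP1 to TP4 it was at 122, 131, 102 and 63.3 CPM, all below GEM3. This was a log2 fold change of -2.21 ± 0.35 (adjusted p = 0.000617), a 4.62-fold lower level, and -2.26 ± 0.34 after GC correction (adjusted p = 0.000319). TP2 and TP4 differed from TP1 and TP3 by a mean of -0.29 on the log2 scale for this gene, whose transcripts hold 52.5% GC.

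Timp2, which also takes part in the activation of pro-Mmp2 by Mmp14, was at 383, 539 and 935 CPM in GEM-BCC and at 550, 896, 416 and 917 CPM in Tp-BCC. Its log2 fold change of 0.31 ± 0.26 did not pass (adjusted p = 0.422). Timp1, inducible by cytokines, was at 17.0 ± 9.29 CPM in GEM-BCC and 10.7 ± 3.77 in Tp-BCC (-0.66 ± 0.39, adjusted p = 0.241). Timp4 was too low to test, with 0 to 10 counts in GEM-BCC and 8, 12, 5 and 4 counts in TP1 to TP4. Timp3 made up 26.7% to 56.1% of Timp CPM in GEM-BCC and 17.9%, 12.7%, 19.4% and 6.35% in TP1 to TP4, so the ranges did not overlap.

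Timp transcripts were also set against Mmp transcripts in each tumor, as a description with no test. The log2 ratio of summed Timp to summed Mmp CPM was -0.89, -0.41 and 0.15 (lowest, median and highest) in GEM-BCC and -0.56, -0.90, -0.91 and -1.13 in TP1 to TP4. The mean difference between models was -0.43, against an SD of 0.39 among GEM-BCC tumors, and GEM1, GEM3, GEM5 and GEM6 lay inside the Tp-BCC range. Only GEM9 had more Timp than Mmp CPM. Per kilobase, GEM-BCC had a mean log2 ratio of -0.39 ± 0.39 (SD, n = 9), beside -0.77 ± 0.21 for Tp-BCC (SD, n = 4).

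**Figure D3:**
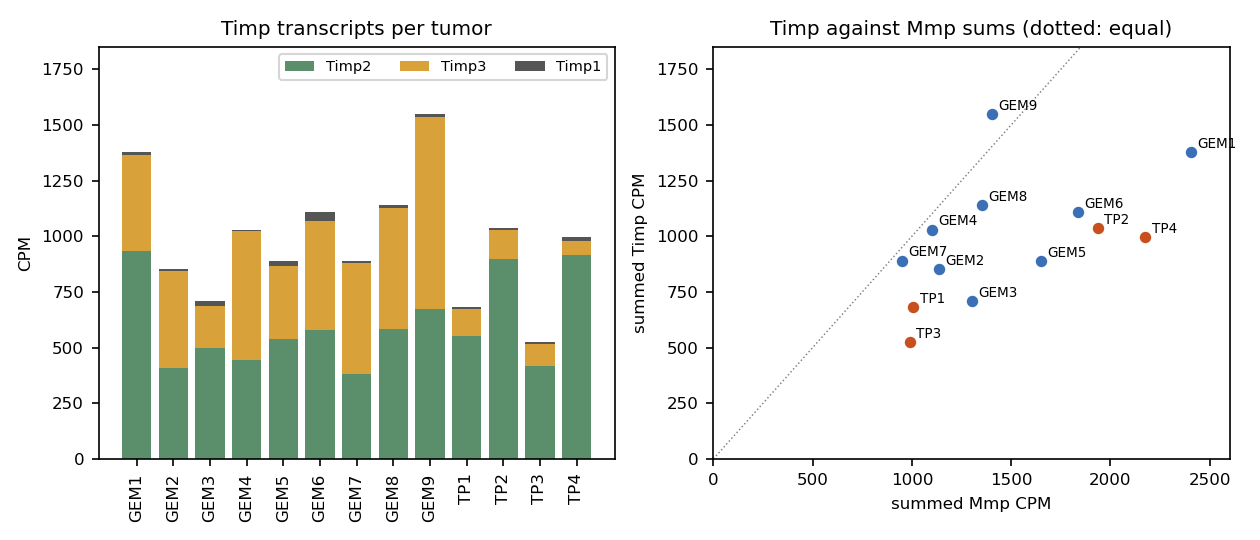
Left, CPM of Timp2, Timp3 and Timp1 stacked for each tumor; right, summed Timp CPM against summed Mmp CPM per tumor, GEM-BCC in blue and Tp-BCC in orange. The Timp3 share is 6.35% to 19.4% in the 4 Tp-BCC tumors and at least 26.7% in the 9 GEM-BCC tumors, while the points of both models overlap on the right.

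Of the 9 catalytic Adams, 1 fell and none rose. Adam33, a protease of mesenchymal cells known from asthma genetics, had the largest change in the family. It was at 6.05, 12.4 and 24.7 CPM in GEM-BCC (184 to 827 counts) and at 1.18, 0.836, 0.838 and 0.643 CPM in TP1 to TP4 (9 to 20 counts). Every Tp-BCC tumor lay below GEM1, the lowest GEM-BCC tumor. Its log2 fold change was -3.84 ± 0.45 (adjusted p = 3.97e-05), or 14.3-fold lower, and -4.05 ± 0.51 after GC correction (adjusted p = 8.54e-05). With either pair of Tp-BCC tumors alone it was -3.64 (TP1 and TP3) and -4.08 (TP2 and TP4).

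Adam10, which sheds Notch receptors and cadherins, was at 70.0, 99.3 and 146 CPM in GEM-BCC and at 105, 31.2, 114 and 17.1 CPM in TP1 to TP4. TP1 and TP3 lay inside the GEM-BCC range and TP2 and TP4 far below it. Neither fit passed, at a log2 fold change of -0.61 ± 0.41 (adjusted p = 0.302) and -0.53 ± 0.31 after GC correction (adjusted p = 0.219). Adam17, the sheddase of Tnf and of Egf-family ligands, had the same shape, with 33.3, 51.6 and 74.8 CPM in GEM-BCC against 43.4, 18.8, 43.3 and 6.07 CPM. With all 13 tumors it did not pass before GC correction (-0.89 ± 0.40, adjusted p = 0.131) and passed after it (-0.66 ± 0.23, adjusted p = 0.0458). Adam15, the best-expressed catalytic Adam by mean log2 CPM over all 13 tumors (in GEM-BCC Adam10 was higher), had the opposite shape at 79.8, 139, 82.8 and 193 CPM, against 75.0 to 136 in GEM-BCC, and did not pass (0.42 ± 0.24, adjusted p = 0.234).

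Among the 5 non-catalytic Adams, 1 rose. Adam11, known mainly from neurons, was at 6.43, 8.14 and 11 CPM in GEM-BCC and at 15, 19.7, 14.5 and 23.8 CPM in Tp-BCC, with no overlap. A log2 fold change of 1.11 ± 0.22 was found (adjusted p = 0.00291), and of 0.81 ± 0.18 after GC correction (adjusted p = 0.00413). Adam22, the best expressed of them, was at 25.1 ± 7.81 CPM in GEM-BCC and 15.3 ± 11.6 in Tp-BCC without passing (adjusted p = 0.269). Adam23 had only 1 to 24 counts. The newly passing Adam1a shares all of its 100-base stretches with other annotated genes, 97.8% of them with Gm42878, so its counts are uncertain.

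Of the 7 proteoglycan-cleaving Adamts, 1 rose and 1 fell. Adamts8 was at 3.80, 6.97 and 8.95 CPM in GEM-BCC and at 13.2, 30.4, 11.6 and 25.5 CPM in Tp-BCC. All 4 Tp-BCC tumors lay above GEM3, the highest GEM-BCC tumor (log2 fold change 1.62 ± 0.29, adjusted p = 0.00143; 1.23 ± 0.24 and 0.00208 after GC correction). Adamts5, the main aggrecanase of mouse cartilage, went the other way, with 10.8, 18.3 and 39.6 CPM in GEM-BCC and 11.9, 6.24, 14.7 and 4.00 CPM in Tp-BCC. TP1 and TP3 lay inside the GEM-BCC range. The fall amounted to -1.3 ± 0.41 on the log2 scale (adjusted p = 0.0371) and -0.90 ± 0.29 after GC correction (adjusted p = 0.03), and the call was lost without any 1 of GEM2, GEM5, GEM6, GEM8, TP1, TP2 or TP4 (0.05 to 0.115) and with counts summed per mouse (0.0532). Adamts1, the best expressed of the 7, varied from 19.9 CPM in GEM3 to 219 in GEM9 and did not pass (adjusted p = 0.867).

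The 3 procollagen N-propeptidases, which trim the amino end of fibrillar procollagens, had positive log2 fold changes, of which 1 passed. Adamts3 was at 6.43, 10.3 and 17.2 CPM in GEM-BCC and at 57.9, 37.5, 57.1 and 10.7 CPM in TP1 to TP4. TP1, TP2 and TP3 lay above all GEM-BCC tumors and TP4 near their median. The log2 fold change of 1.98 ± 0.35 (adjusted p = 0.00139) was just under the limit of 2, and stayed at it after GC correction (2.00 ± 0.32, adjusted p = 0.000543). It was 2.48 with TP1 and TP3 alone and 1.23 with TP2 and TP4 alone. It was past 2 without GEM6 (2.01), GEM8 (2.11), GEM9 (2.02), TP2 (2.00) or TP4 (2.27), so the count of members past the limit was then 1 rather than 0. Adamts2, the best expressed of the 3, was at 85.2 ± 25.5 CPM in GEM-BCC and 112 ± 36.7 in Tp-BCC (adjusted p = 0.326), and Adamts14 was at 24.3 ± 7.58 and 34.4 ± 10.1 (adjusted p = 0.184).

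Of the 8 other Adamts, 1 rose and 2 fell. Adamts7, which cuts cartilage oligomeric matrix protein, rose from 13, 22.9 and 38.3 CPM in GEM-BCC to 39.8, 66.8, 35.1 and 81.2 CPM in Tp-BCC (log2 fold change 1.24 ± 0.28, adjusted p = 0.00619). TP3 overlapped GEM1, and after GC correction the models no longer overlapped (0.90 ± 0.19, adjusted p = 0.00392). Adamts18 fell from 11.7, 29.5 and 44.9 CPM to 6.83, 4.11, 7.48 and 2.36 CPM, with every Tp-BCC tumor below GEM3. Its log2 fold change was -2.47 ± 0.38 (adjusted p = 0.000493), or 5.54-fold lower, and -2.34 ± 0.32 after GC correction (adjusted p = 0.000143).

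Adamts13, which cuts von Willebrand factor in blood, was at 7.23, 24.5 and 44.5 CPM in GEM-BCC and at 10.4, 7.67, 10.2 and 7.22 CPM in Tp-BCC. GEM1 and GEM8 lay within the Tp-BCC range. It fell with a log2 fold change of -1.42 ± 0.42 (adjusted p = 0.0287), a call lost without TP1 (0.0503), TP2 (0.0872) or TP4 (0.0817), and of -1.61 ± 0.49 after GC correction (adjusted p = 0.0246). Adamts10, a protease of fibrillin microfibrils and the best expressed of this group over all 13 tumors (in GEM-BCC Adamts12 was higher, at a mean of 141 CPM), varied least among GEM-BCC tumors (SD 0.14 on the log2 scale), at 131 ± 12.1 CPM against 149 ± 30.4 in Tp-BCC (adjusted p = 0.436).

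Of the 4 Adamts-like proteins, Adamtsl2, which binds fibrillin microfibrils and latent Tgf-beta binding protein, fell. It was at 8.89, 24.4 and 87.6 CPM in GEM-BCC, highest in GEM7, and at 3.18, 5.72, 4.37 and 7.07 CPM in Tp-BCC. Every Tp-BCC tumor lay below GEM3, the lowest GEM-BCC tumor. This was a log2 fold change of -2.61 ± 0.56 (adjusted p = 0.00513), or 6.09-fold lower, and -2.96 ± 0.58 after GC correction (adjusted p = 0.0021). Adamtsl5, the best expressed, was at 35.6 ± 6.71 and 41.3 ± 10.8 CPM (adjusted p = 0.491).

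In bulk tumors, fewer cells of a type and less RNA per cell cannot be told apart. Several marker lists differed between the models alongside these genes. Beside the counts of markers below, 11.1% of all tested genes rose and 8.35% fell at an adjusted p under 0.05. For differentiated epidermis, 3 of 8 tested markers fell and none rose, and their summed level went from 146 to 542 CPM in GEM-BCC down to 60.0 to 104 in Tp-BCC. For the hair follicle, 4 of 8 fell, from 120 to 448 CPM down to 59.4 to 93.3, and Krt75 and Msx2 were at or under 0.193 CPM in all Tp-BCC tumors. Endothelial markers rose in 4 of 8 cases (109 to 271 against 357 to 438 CPM), and all 4 tested adipocyte markers rose (0.791 to 5.26 against 13.5 to 118 CPM, highest in TP2).

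Fibroblast markers were mixed, with 4 of 10 higher and 1 lower and overlapping sums of 13280 to 50472 and 16099 to 30368 CPM. Macrophage markers rose in 1 of 10 cases, with overlapping sums of 85.5 to 442 and 230 to 457 CPM. Of the 4 tested neutrophil markers 2 fell, at sums of 0.989 to 8.37 and 1.12 to 2.57 CPM, and Ly6g never exceeded 3 counts. Both calls, S100a8 and S100a9, were lost after GC correction (adjusted p = 0.0558 and 0.0959). Skeletal muscle markers reached 133 CPM in TP4 and 12.0 in TP2, against 1.77 and 2.93 in the other 2 Tp-BCC tumors and at most 8.82 in GEM-BCC, with none of 4 passing. No tumor keratinocyte marker of 8 passed, but after GC correction Krt14 was lower (-1.03, adjusted p = 0.0145). The part of these cell types in the protease results was not tested.

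The Tp-BCC tumors fell into pairs for most members. TP1 and TP3 both lay above TP2 and TP4 for 18 members, TP2 and TP4 both lay above TP1 and TP3 for 27, and the pairs overlapped for 9. The shares over all tested genes were 35.9% and 43.6%. The first group had a median transcript GC content of 48.9% and the second of 57.0%, and across the 54 members the difference between pairs followed GC content with a Spearman rho of 0.75 (0.79 over all genes, which are not independent replicates). By this difference, Adam10 was lower in TP2 and TP4 by a log2 value of -2.24 and Adam17 by -2.01, whereas Mmp14 was higher by 1.05.

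With TP1 and TP3 as the only Tp-BCC tumors, 2 members rose and 5 fell at an adjusted p under 0.05; with TP2 and TP4, 8 rose and 13 fell. The shares of all genes in these fits were 5.87% and 4.51%, and 19.1% and 23.8%. Adam10 (-2.07, adjusted p = 0.000703), Adam17 (-2.05, 0.00244) and Adam22 (-2.16, 0.00234) passed as lower with TP2 and TP4 alone, and Adam15 as higher (0.85, 0.00956), whereas with TP1 and TP3 alone none of these 4 passed (0.607 to 0.994). Adam33, Adamts18, Timp3, Adamtsl2 and Adamts3 passed in the same direction with either pair. Adamts8, Mmp28, Adamts7 and Adam11 did not pass with TP1 and TP3 alone (0.91, 1.18, 0.67 and 0.80 on the log2 scale, adjusted p = 0.0749, 0.141, 0.163 and 0.0525).

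**Figure D4:**
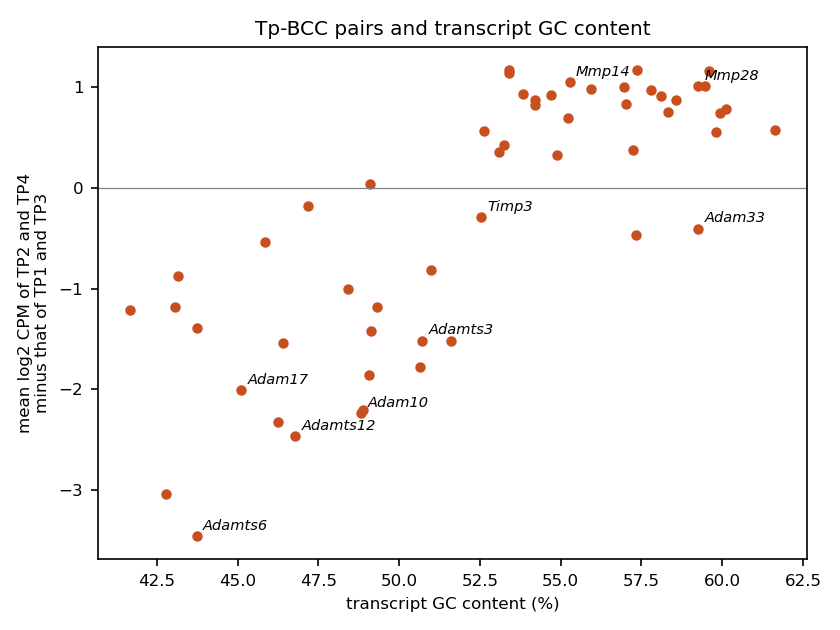
Mean log2 CPM of TP2 and TP4 minus that of TP1 and TP3 against the GC content of transcripts, 1 point per tested family gene, with 9 genes named. Genes rich in GC such as Mmp14 tend to lie above 0 and genes poor in GC such as Adam17 below it. Timp3 and Adam33 lie less than 0.5 below 0, although Adam33, at 59.3% GC, is richer in GC than Mmp14.

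Among GEM-BCC tumors, the secreted Mmp3, Mmp12 and Mmp13 shared a pattern. Mmp12, the macrophage metalloelastase, had 573, 326 and 464 counts in GEM5, GEM6 and GEM7 and 21 to 69 in the other 6. Mmp13, the main interstitial collagenase of mice, had 179, 95 and 184 counts in the same tumors and 6 to 27 in the others. Mmp3 (stromelysin 1) had 78, 30 and 23 against 0 to 5 counts.

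The same 3 tumors were thus highest for all 3 genes, which are neighbors on chromosome 9 and whose promoters with the AP-1 motif are shown above. GEM5, GEM6 and GEM7 were also highest for Adam8 (329, 208 and 182 counts against 90 to 123) and Mmp25 (13, 22 and 22 against 0 to 10). Neither Adam8 nor Mmp25 lies in this cluster, and neither had the AP-1 motif in its promoter window. The part of position or motif in this pattern was not tested. GEM8, from the same mouse as GEM7, had 26, 27 and 2 counts of Mmp12, Mmp13 and Mmp3, and did not share the high level. The other cluster genes with values in all tumors were sparse: Mmp8 reached 6 counts (GEM5), Mmp10 reached 3, and Mmp27 reached 21 (GEM6) but had 2 in GEM7. None of the 3 differed between models at an adjusted p under 0.05 (Mmp12 -1.05 ± 0.92, 0.439; Mmp13 0.17 ± 0.94, 0.917; Mmp3 1.44 ± 0.91, 0.275). Their SD among GEM-BCC tumors was 1.85, 1.84 and 1.60 on the log2 scale for Mmp12, Mmp13 and Mmp3, where the median over the members was 0.55. These genes were grouped after their values were seen, so a large SD follows from the choice. It was not particular to them: Mmp16 (1.66), Mmp9 (1.35) and Mmp25 (1.29) were also above that median.

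Macrophage markers summed to 265, 442 and 128 CPM in GEM5, GEM6 and GEM7 and to 85.5 to 270 in the other 6 GEM-BCC tumors. Hair follicle markers summed to 448, 340 and 356 CPM in these tumors and to 120 to 326 in the others. Neutrophil markers were at 4.43, 4.52 and 8.37 CPM against 0.989 to 5.85. The part of these cells in the Mmp levels was not tested.

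**Figure D5:**
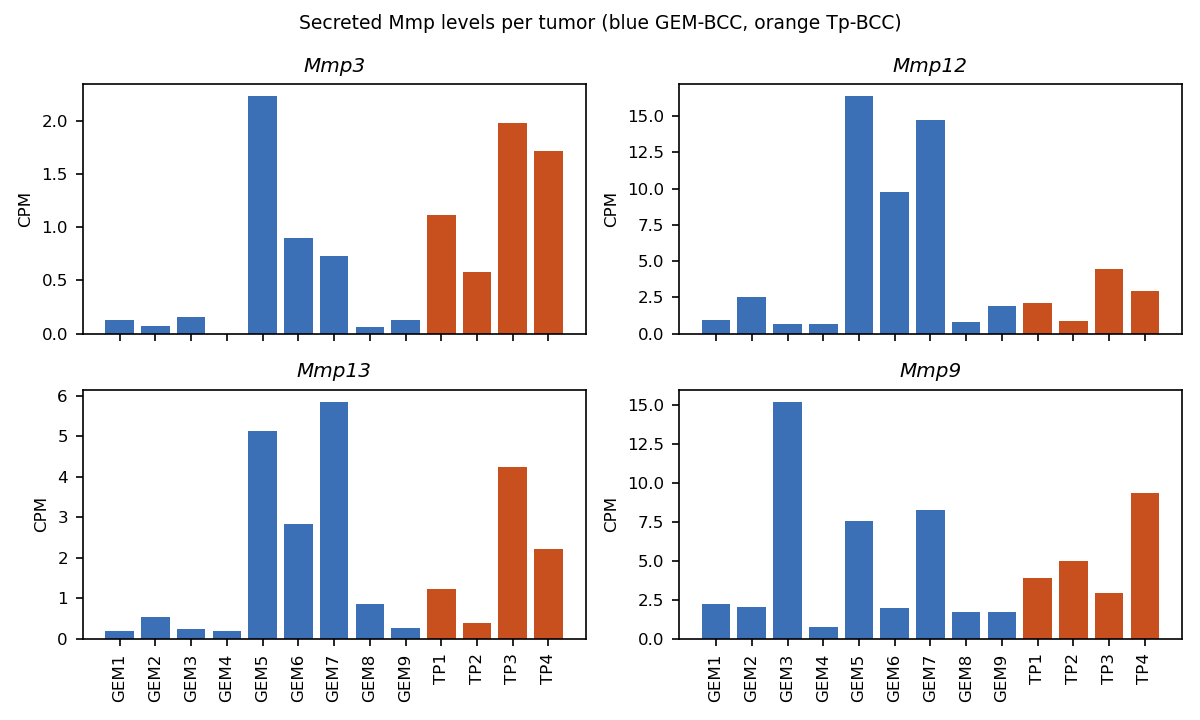
CPM of Mmp3, Mmp12, Mmp13 and Mmp9 in each of the 13 tumors, GEM-BCC in blue and Tp-BCC in orange. GEM5, GEM6 and GEM7 have the 3 highest GEM-BCC bars for Mmp3, Mmp12 and Mmp13, while the highest bar for Mmp9 is GEM3.

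Over the family, the spread among tumors was larger in GEM-BCC than in Tp-BCC for 28 of 54 members (37.2% of all genes), and for 39 after GC correction (58.8% of all genes). Before correction, the members had a median SD on the log2 scale of 0.55 among GEM-BCC and 0.61 among Tp-BCC tumors, beside 0.44 and 0.58 for all genes. After GC correction the order turned, with 0.53 among GEM-BCC and 0.37 among Tp-BCC tumors, beside 0.41 and 0.36 for all genes. The tumors of 1 mouse were no more alike than others: the median absolute difference over the members was 0.65 between GEM2 and GEM3 and 0.58 between GEM7 and GEM8, against a median of 0.60 over 34 pairs from different mice.

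Genes that act with the family were read from lists of activators, inhibitors, partners and substrates. Of 30 tested, 5 rose and 4 fell at an adjusted p under 0.05. Over all tested genes the shares were 11.1% and 8.35%, which also stand beside the counts of each list below. In plasminogen activation, which feeds the activation of several pro-Mmps, 2 of 7 fell and none rose. After GC correction Plau, urokinase, also passed as higher (1.08, adjusted p = 0.0229, against 0.73 and 0.0896 before). Plat, tissue plasminogen activator, was at 35.4, 70.5 and 113 CPM in GEM-BCC and at 36.3, 34.5, 33.6 and 24.7 CPM in Tp-BCC (-1.15 ± 0.30, adjusted p = 0.0161), with only TP1 above the lowest GEM-BCC tumor. Plg, the zymogen itself, was near its floor, at 0 to 2.66 CPM in GEM-BCC and at most 0.129 in Tp-BCC. Its fall passed (adjusted p = 0.023), but all Tp-BCC tumors were at or under 3 counts, so no fold is given. The best expressed of the inhibitor and clearance list, Lrp1, which takes up Mmp and Timp complexes, did not pass (0.52 ± 0.25, adjusted p = 0.15). In that list Pcolce, the enhancer of procollagen C-proteinase, rose (1.08 ± 0.33, adjusted p = 0.034), at 238 ± 104 CPM in GEM-BCC and 505 ± 205 in Tp-BCC. After GC correction it did not pass (adjusted p = 0.0783).

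None of the 4 proprotein convertases, which remove propeptides of membrane-type Mmps and Adams, passed. Furin, the best expressed, was at 357 ± 151 CPM in GEM-BCC and 636 ± 303 in Tp-BCC (0.83 ± 0.33, adjusted p = 0.0894). None of the 3 tested inducers passed, with Bsg, a cell surface inducer of Mmps, the best expressed (-0.51 ± 0.27, adjusted p = 0.19, and -0.78 with 0.0152 after GC correction).

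Of the 8 tested partners of Adam10 and Adam17, 3 rose and 1 fell. Rhbdf2, the iRhom that carries Adam17 to the cell surface, was at 137, 223 and 325 CPM in GEM-BCC and at 310, 582, 313 and 651 CPM in Tp-BCC (1.03 ± 0.27, adjusted p = 0.0154). TP1 and TP3 overlapped GEM1 and GEM8. Of the tetraspanins that sort Adam10, Tspan15 (0.92 ± 0.29, adjusted p = 0.0349) and Tspan17 (1.11 ± 0.37, 0.0485) rose and Tspan5 fell (-1.03 ± 0.31, 0.029). Tspan17 and Tspan5 did not pass after GC correction (adjusted p = 0.0955 and 0.224).

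Among 5 tested Egf-family ligands that Adams release, Tgfa fell from 5.17, 15 and 33.1 CPM in GEM-BCC to 3.24, 3.86, 2.15 and 3.50 CPM in Tp-BCC, without overlap (-2.37 ± 0.49, adjusted p = 0.00384). Epgn rose from 0.033, 0.626 and 2.51 CPM to 4.65, 0.964, 6.11 and 4.64 CPM (2.59 ± 0.76, adjusted p = 0.0273), with TP2 inside the GEM-BCC range. Tgfa and Plat kept their calls with each tumor left out in turn. Rhbdf2 lost its call without TP2 (0.0689) or TP4 (0.0758), Tspan5 without TP1 (0.0767) or TP3 (0.0719), and Epgn and Plg without TP1, TP3 or TP4 (up to 0.072 and 0.0586). Tspan15 lost its call without any 1 of GEM1, GEM4, GEM6, GEM7, GEM9, TP1, TP2 or TP4 (up to 0.136), Tspan17 without GEM1, GEM2, GEM4, GEM5, GEM7, GEM8, GEM9, TP2 or TP4 (up to 0.235), and Pcolce without GEM1, GEM2, GEM7, GEM8, GEM9, TP2 or TP4 (up to 0.181). The count of 9 passing genes dropped to 5 without TP1, 5 without TP2 and 3 without TP4.

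Of the members that were not tested, none with values in all tumors exceeded 21 counts in a tumor. The 13 genes valued only in GEM-BCC (Mmp1a, Mmp1b, Mmp7, Mmp20, Mmp21 and 8 Adam genes) reached at most 3 counts there, and Adam39, valued only in Tp-BCC, was at 0. The table gives no fold for these genes.

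By gene order in GRCm38.p6, the 10 tested genes on each side of the 13 passing members had median GC-corrected log2 fold changes from -0.34 (around Mmp23) to 0.43 (around Mmp28). Around Adam33 the median was 0.22 and around Timp3 it was -0.13, while around Adamts3, the gene with the highest log2 fold change, 16 of 20 neighbors were positive with a median of 0.36. Around Adamts13, Adamtsl2 and Mmp23, which fell, 4, 4 and 5 of 20 were positive, with medians of -0.30, -0.28 and -0.34. The median over all tested genes after GC correction was -0.02. Adamts13 and Adamtsl2 share the near neighbors Cacfd1 and Slc2a6, which lie between them. Each is thus among the neighbors of the other, most of their neighbors are the same genes, and their counts describe 1 region.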

How the data were processed

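The authors cleaned reads with SOAPnuke, aligned them to GRCm39 transcripts with Bowtie2 2.3.4.3 and quantified genes with RSEM 1.3.1, counting by strand. The deposited values are RSEM expected counts per gene and tumor, neither rounded nor normalized. How missing values arose is not stated. Genes valued in all 13 tumors with at least 10 counts in at least 4 were kept, rounded and compared with edgeR 4.0.16 in R 4.3.3 (TMM, robust quasi-likelihood F test, no covariate). SE is the log2 fold change divided by the square root of F. CPM are TMM-scaled, and log2 CPM use a prior count of 2. The GC correction removed, per tumor, a lowess trend (span 0.3) of log2 CPM on the median GC content of protein-coding transcripts (GENCODE vM21). The study's own test, DESeq2 1.42.0, served as an alternative. The code was tested on simulated data.

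Named were members with an adjusted p under 0.05, the Timps, the best expressed of each role, and Mmp2, Mmp9, Mmp13, Mmp14, Adam10 and Adam17. Pathway genes followed the same rule. Mmp3, Mmp15, Mmp16, Mmp25, Adam1a, Adam8, Adam23, Adamts14 and the chromosome 9 cluster were added after their values were seen. Members and lists were chosen with earlier results of these data known. Tumors are the replicates, 2 pairs share a mouse, and p-values measure only the spread between tumors. Depth is given as total counts, and 3 counts or fewer allow no fold. Symbols were matched to RefSeq, which gave promoters for 34 of 54 members.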

Additional observations from a re-analysis of the deposited data

Results flagged for a closer look

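Of 82 sets of values screened (41 named genes in each model), 3 held a tumor far from the others by Dixon's criterion, where chance gives about 1 in 20. Adamts1 was at 43.3 CPM in TP4 and at 120 to 142 CPM in TP1, TP2 and TP3. Adamts10 was at 104 CPM in GEM4 and at 126 to 148 CPM in the other GEM-BCC tumors. Epgn was at 0.964 CPM in TP2 and at 4.64 to 6.11 CPM in TP1, TP3 and TP4.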

How the results depend on the processing

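Alternatives were other normalizations, filters and dispersions, DESeq2, counts summed per mouse, missing values at 0, GC correction, a replicate block and each tumor left out; single pairs of Tp-BCC tumors were added after seeing the data. Adam33, Adamtsl2, Adamts18, Timp3 and Adamts3 stayed past the adjusted p of 0.05 in all of these but the replicate block, under which Adam33 passed (0.0258) and the other 4 did not (0.106 to 0.125). Depth limits Mmp3, Mmp13, Mmp24 and Adam23, which had under 30 counts in most tumors.

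Higher members at an adjusted p under 0.05 numbered 6, then 2 with TP1 and TP3 alone and 0 with the replicate block, and 5 to 6 with a tumor left out. Lower members numbered 7, then 13 with TP2 and TP4 alone and 1 with the block, and 4 to 7 with a tumor left out. Past a log2 fold change of 2 as well, higher members numbered 0, then 1 with counts summed per mouse (Adamts3), with no filter (Adamts16) and with TP1 and TP3 alone (Adamts3), 3 with TP2 and TP4 alone, and 0 to 1 with a tumor left out; lower members numbered 4 throughout leave-one-out, 12 with TP2 and TP4 alone and 1 with the block. Passing pathway genes numbered 9, then 4 with TP1 and TP3 alone, 1 with the block and 3 to 10 with a tumor left out. Shares over all genes past the limit of 2 were counted only with all 13 tumors and no alternative applied. No shares were counted for the block or with a tumor left out, so these counts have no background beside them. The median log2 fold change of the members was -0.18 after GC correction, -0.0247 with library size alone, -0.069 with TP1 and TP3 alone, -0.0090 with TP2 and TP4 alone, 0.18 with the block, -0.034 under the stricter filter and -0.084 to 0.114 with a tumor left out. Between models, the log2 ratio of summed Timp CPM over summed secreted and membrane-type Mmp CPM differed by -0.43, which was -0.375 per kilobase and -0.42 with means per mouse.

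Single genes changed sign, none of them past the threshold in either fit. After GC correction these were Mmp14 (-0.16), Adamts10 (-0.081), Adamtsl5 (-0.078) and Mmp9 (-0.20). With library size alone it was Mmp14 (-0.0065). With TP1 and TP3 alone they were Timp2 (-0.21), Mmp14 (-0.51), Adam15 (-0.19), Adamts1 (0.14), Adamts2 (-0.081), Adamts10 (-0.010), Adamtsl5 (-0.11), Mmp9 (-0.46) and Adam10 (0.10). With TP2 and TP4 alone they were Mmp13 (-0.47), Mmp2 (0.45) and Mmp11 (0.35). With the replicate block they were Mmp2 (0.069), Mmp12 (1.20) and Adamts1 (0.44). With a tumor left out, the range crossed 0 for Mmp13 (-0.49 to 0.65), Mmp2 (-0.31 to 0.17), Mmp11 (-0.27 to 0.13), Mmp14 (-0.16 to 0.28), Adamts1 (-0.31 to 0.085), Adamtsl5 (-0.0077 to 0.34) and Mmp9 (-0.29 to 0.63). The causes were not tested.

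The replicate block paired tumors by number, which the labels do not tie to a shared mouse or day. GEM5 to GEM9 have no Tp-BCC tumor of the same number, so under the block they added nothing to the comparison of models. Deviations of tumors with the same number correlated at -0.381, -0.122, -0.101 and -0.179, so the numbers share only a name.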
